A study of Bos taurus with 26 samples.

Results

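ENSBTAG00000047700 is a cattle gene ID whose read counts differed widely between endometrium libraries. It is 1 of 24616 IDs in the deposited count files and was followed here in all 26 libraries. It was chosen by its measured values: a high mean level in endometrium, a wide spread between endometrium libraries and a higher level in the high-fertility line there. Those 3 features are therefore given as descriptions, with no test. The libraries come from Holstein cows sampled on day 13 of the oestrous cycle, either of a line with high fertility (Fert+) or of one with low fertility (Fert-). Endometrium was taken by biopsy from the uterine horn on the side of the corpus luteum (8 Fert+ and 6 Fert- libraries). A luteal biopsy gave another 7 Fert+ and 5 Fert- libraries. No agent or transgene is named for any group, and the labels add only a batch number from 1 to 4, without saying of what, and the parity of the cow (2, 3 or 4). Since separate cows are not stated for the libraries, p-values measure only the spread between these samples, which may be technical.

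The endometrium is the lining of the uterus, made of surface and gland epithelium over a stroma rich in vessels and immune cells. Under progesterone from the corpus luteum, its glands secrete the proteins and nutrients on which a bovine conceptus depends before it attaches, and the set of transcripts changes with the stage of the cycle. The corpus luteum forms from the ovulated follicle and consists mainly of steroid-making luteal cells with a dense bed of capillaries. The files and the table used here give no symbol for ENSBTAG00000047700 (0 of 24616 IDs matched), so nothing is said of its product, position or sequence, and neither tissue label could be checked against named markers.

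Library totals ranged from 9627378 to 16580572 counts in endometrium and from 11924906 to 18008417 in corpus luteum, and levels are given as counts scaled to a common library total of 1000000 (CPM). A set of 25 other IDs, picked from these libraries as high in endometrium and low in corpus luteum, summed to between 7549 and 18025 CPM in every endometrium library and to between 10.7 and 72.8 CPM in every corpus luteum library. Replicates 15, 16, 18 and 19 of Fert+ corpus luteum lay apart on the first principal component of the luteal libraries (45.8% of the variance), with loadings from -0.40 to -0.36 against 0.05 to 0.42 for the others. The luteal line difference is therefore also given without them. Fert- corpus luteum replicate 17 held 108 of 10424 IDs at a level at least 10-fold above the next highest luteal library, Fert- replicate 28 held 17, and the other 10 luteal libraries held 0.

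The endometrial level of ENSBTAG00000047700 covered a wide range in both lines. Fert+ endometrium libraries had 4341 CPM in replicate 1, 1154 in replicate 2, 4358 in replicate 4, 329 in replicate 5, 610 in replicate 7, 103 in replicate 10, 2486 in replicate 12 and 718 in replicate 13. In Fert- endometrium, replicates 3, 6, 8, 9, 11 and 14 were at 617, 6.81, 679, 64.7, 39.3 and 70.0 CPM. The 2 highest libraries, Fert+ replicates 1 and 4, lay within 1.00387-fold of each other, and the lowest, Fert- replicate 6, lay 640-fold below the highest. Counts behind these values were 48357 in Fert+ replicate 4 (0.436% of the library) and 80 in Fert- replicate 6. The exact Poisson 95% interval of the lowest library was 5.40 to 8.47 CPM, which covers counting error only, since reads without molecular identifiers are not independent molecules. Ordered by count within a library, with no correction for length, the ID stood 13th in Fert+ replicate 4 and 10730th in Fert- replicate 6. In whole tissue, fewer cells of a type and less RNA per cell cannot be told apart.

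The values formed a graded series more than an on and an off state. Ordered by level, 5 endometrium libraries lay under 110 CPM, Fert+ replicate 5 lay at 329 CPM, 4 libraries lay between 600 and 720 CPM and 4 lay above 1000 CPM. The widest step between neighbours was the 5.77-fold gap between Fert- replicates 6 and 11, and the next was the 3.20-fold gap between Fert+ replicates 10 and 5. Counting error was small against these steps: the 95% counting intervals overlapped for 3 of the 13 pairs of neighbours, namely Fert- replicates 9 and 14, Fert+ replicate 7 with Fert- replicate 3, and Fert+ replicates 1 and 4. No library of either tissue had a count of 0, the lowest being 14 counts in Fert+ corpus luteum replicate 24.

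**Figure D1:**
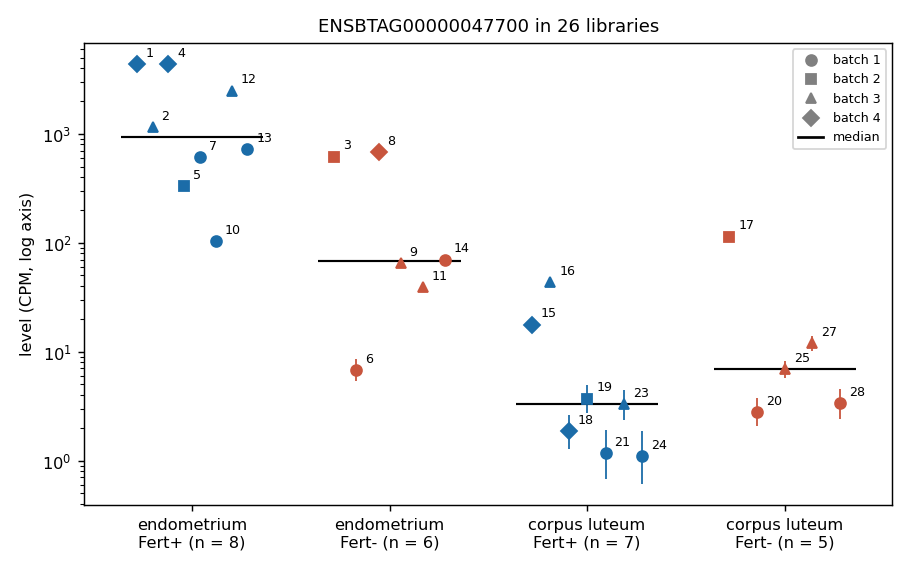
Level of ENSBTAG00000047700 in CPM (log axis) in each of the 26 libraries, by tissue and line, with the replicate number beside each point, the batch as the marker shape, exact Poisson 95% counting intervals as bars (mostly smaller than the marker) and the group median as a line. Endometrium libraries run from 6.81 to 4358 CPM and corpus luteum libraries from 1.11 to 114 CPM.

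Few IDs combined such a level with such a spread. The mean over the 14 endometrium libraries was 1113 ± 1516 CPM (SD, n = 14), which placed the ID 102nd by mean count. The SD of its log2 CPM was 2.75, the 7th highest of 13974 IDs with a mean of at least 1 CPM, where the median ID had 0.29 and the 95th percentile was 0.93. Among the 1866 IDs with a mean of at least 100 CPM it ranked 2nd, and the median there was 0.21. These ranks follow from how the ID was chosen and carry no test. In corpus luteum, which the choice did not use, the SD of log2 CPM was 2.03 and ranked 131st of 13224 IDs, against a median of 0.34 and a 95th percentile of 1.07.

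**Figure D2:**
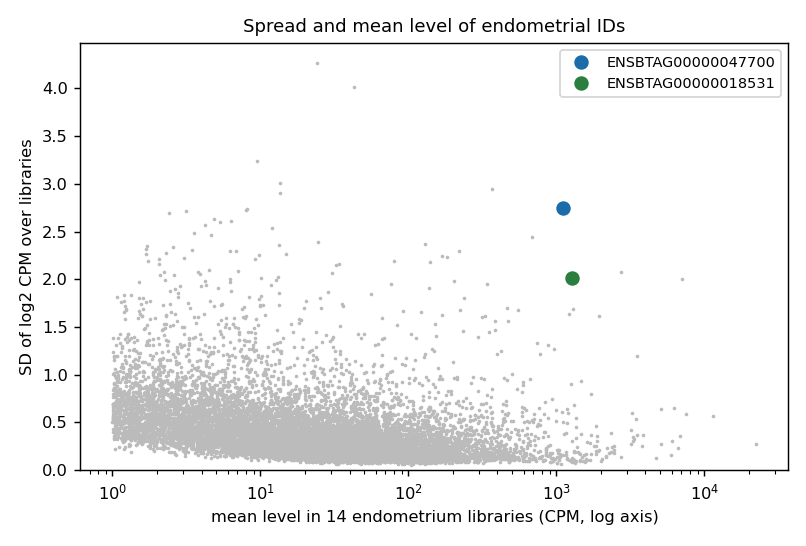
Each grey point is an ID with a mean of at least 1 CPM in endometrium, placed by its mean level over the 14 libraries (CPM, log axis) and by the SD of its log2 CPM. ENSBTAG00000047700 lies at 1113 CPM and an SD of 2.75, and ENSBTAG00000018531, the ID whose pattern was most like it, at 1277 CPM and 2.02.

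The lines overlapped in endometrium although the Fert+ mean was higher. The level averaged 1762 ± 1753 CPM (SD, n = 8) in Fert+, with a median of 936 CPM, and 246 ± 313 CPM (SD, n = 6) in Fert-, with a median of 67.3 CPM. Of the 8 Fert+ libraries, 5 lay above the highest Fert- library, and of the 6 Fert- libraries, 4 lay below the lowest Fert+ library. Fert- replicates 3 and 8 lay inside the Fert+ range, and Fert+ replicates 5, 7 and 10 inside the Fert- range. In the edgeR quasi-likelihood fit with batch as a term, the log2 difference (Fert+ minus Fert-) was 3.44 (SE 0.91, 95% interval 1.46 to 5.42), or 10.8-fold with an interval of 2.74 to 42.8. This contrast was used in the choice, so no p is given. Across all IDs, edgeR called 0 of 14243 (0%) in this contrast, with 428 at an unadjusted p under 0.05, while limma-voom called 0 and DESeq2 called 8. ENSBTAG00000047700 was among the 8, which is not separate support because the contrast was part of its choice.

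Within batches the lines did not differ in 1 direction throughout. In batch 1 the Fert+ libraries were at 610, 103 and 718 CPM and the Fert- libraries at 6.81 and 70.0 CPM, a 16.3-fold difference of geometric means. The libraries at 610 and 718 CPM were of parity 2 and the rest of parity 4, where the difference was 4.71-fold. In batch 3 the Fert+ libraries stood at 1154 and 2486 CPM against 64.7 and 39.3 CPM in Fert-, 33.6-fold apart. The library at 2486 CPM was of parity 4 and the rest of parity 3, where the lines were 22.9-fold apart. Batch 4 had Fert+ at 4341 and 4358 CPM and Fert- at 679 CPM, a 6.41-fold difference. Its Fert+ libraries were of parity 3 and its Fert- library of parity 2. Batch 2, with 1 library of each line, went the other way, at 329 CPM in Fert+ and 617 CPM in Fert-. The lines did not overlap within any batch, and the direction was Fert+ higher in 3 of 4 batches. With so few libraries in a batch this carries little weight, and in batch 2 an overlap was not possible. The higher level in Fert+ was part of the choice, so these values are a description.

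Batch as a whole did not pass the threshold for ENSBTAG00000047700 in edgeR, which tested the 3 batch coefficients together beside line (F = 5.20, adjusted p = 0.274, unadjusted p = 0.0161). In that test edgeR called 8 of 14243 IDs (0.0562%). DESeq2 gave an adjusted p of 0.0436 for the same ID and called 820 IDs, while limma-voom gave 0.181 and called 55 IDs. Batch differences are part of the spread for which the ID was chosen, so its p-values for batch are descriptions only. All 3 libraries of batch 4 lay at 679 CPM or above and both libraries of batch 2 between 329 and 617 CPM, while batch 1 ran from 6.81 to 718 CPM and batch 3 from 39.3 to 2486 CPM. Libraries sharing line, batch and parity could lie close together, as Fert+ replicates 1 and 4 did in batch 4 at parity 3, or Fert+ replicates 7 and 13 in batch 1 at parity 2. They could also lie far apart: Fert- replicates 6 and 14, both of batch 1 and parity 4, were at 6.81 and 70.0 CPM.

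Parity did not pass the threshold either (edgeR, F = 0.28, adjusted p = 0.889 with line in the model), and edgeR called 0 of 14243 IDs (0%) for parity, with 1563 at an unadjusted p under 0.05. DESeq2 called 210 IDs for parity and limma-voom 0, and their adjusted p for ENSBTAG00000047700 were 0.901 and 0.853. Parity differences too are part of the spread for which the ID was chosen, so these p-values are descriptions only. The 3 libraries of parity 2 were at 610, 718 and 679 CPM, in 2 batches and both lines. At parity 3, Fert+ libraries were at 4341, 1154 and 4358 CPM and Fert- libraries at 64.7 and 39.3 CPM, so the lines did not overlap. At parity 4 they did overlap, with Fert+ at 329, 103 and 2486 CPM and Fert- at 617, 6.81 and 70.0 CPM. Whether the spread differed between parities was not tested, and parity and batch share libraries: both batch 2 libraries were of parity 4, and parity 2 occurred in batches 1 and 4. With batch and parity in 1 edgeR fit, adjusted p was 0.546 for batch and 0.818 for parity.

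**Figure D3:**
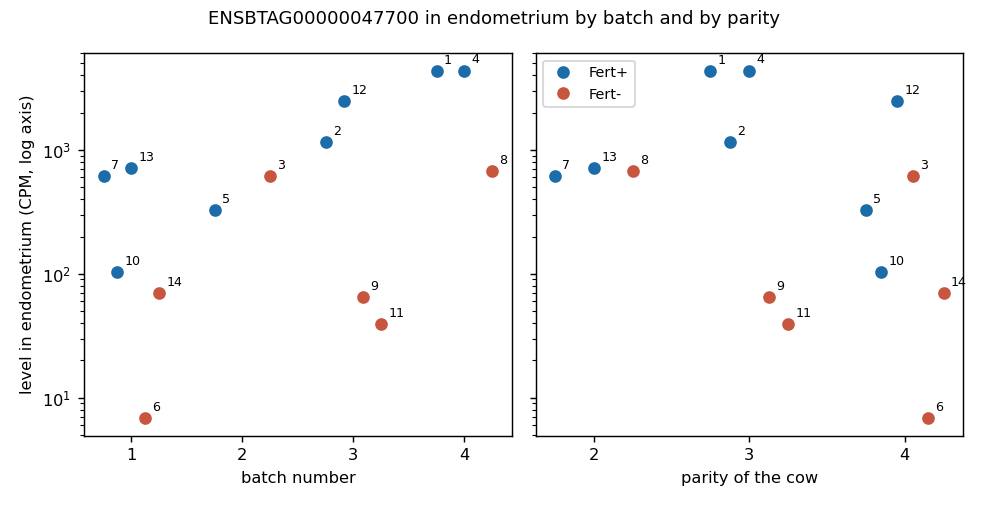
Level of ENSBTAG00000047700 in the 14 endometrium libraries (CPM, log axis) by batch number (left) and by parity (right), coloured by line, with the replicate number beside each point. Fert+ libraries lie above Fert- libraries in batches 1, 3 and 4 and below in batch 2, and the 3 libraries of parity 2 lie between 610 and 718 CPM.

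In corpus luteum the ID was detected in every library at a lower level. Fert+ replicates 15, 16, 18, 19, 21, 23 and 24 were at 17.7, 43.5, 1.85, 3.70, 1.18, 3.27 and 1.11 CPM. Fert- replicates 17, 20, 25, 27 and 28 were at 114, 2.81, 6.91, 11.9 and 3.35 CPM. The groups overlapped, 7 of the 12 luteal libraries lay under 4 CPM, and Fert- replicate 17 was highest with 1522 counts. Counting intervals overlapped for 6 of the 11 neighbours in order, all among the 7 lowest libraries, whose counts ran from 14 to 47. The 2 luteal libraries of parity 2, Fert+ replicates 21 and 24, were the 2 lowest of all.

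The order of the group medians was Fert+ endometrium, Fert- endometrium, Fert- corpus luteum and Fert+ corpus luteum, and each neighbouring pair of groups overlapped in range. Luteal levels averaged 10.3 ± 15.8 CPM (SD, n = 7) for the Fert+ libraries, while Fert- libraries averaged 27.8 ± 48.2 CPM (SD, n = 5). The endometrium and corpus luteum ranges also overlapped, since 5 luteal libraries lay above Fert- endometrium replicate 6. In 1 edgeR fit of all libraries with line as a term, the tissue difference was 5.27 on the log2 scale (endometrium minus corpus luteum, SE 1.17, 95% interval 2.86 to 7.67), or 38.6-fold. It is given without a test because the high endometrial level was part of the choice. The fit took all libraries as independent, so its interval does not account for cows that may have given both tissues.

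The line difference in corpus luteum, which the choice did not use, missed the threshold. Fitted with batch, the log2 difference (Fert+ minus Fert-) was -0.88 (SE 1.14, 95% interval -3.42 to 1.65, edgeR adjusted p = 0.648). In this comparison edgeR called 0 of 13462 IDs (0%), with 2845 at an unadjusted p under 0.05, while limma-voom called 0 and DESeq2 called 195. That interval runs from 0.0937-fold to 3.15-fold, so the data do not show that the lines were alike. The estimate was -1.70 with no batch term and -0.07 with batch and parity. Within batch 1 the Fert+ libraries were at 1.18 and 1.11 CPM and the Fert- libraries at 2.81 and 3.35 CPM, with parity 2 in the former and 4 in the latter. Batch 2 held Fert+ at 3.70 CPM and Fert- at 114 CPM, and batch 3 held Fert+ at 43.5 and 3.27 CPM and Fert- at 6.91 and 11.9 CPM. Batch 4 held only Fert+, at 17.7 and 1.85 CPM. Direction and size rested on few libraries: leaving out Fert- replicate 17 gave a log2 difference of -0.0067, leaving out Fert+ replicate 19 gave 0.10 and leaving out Fert+ replicate 16 gave -2.48. Dropping Fert- replicate 25 gave -1.67 and dropping Fert- replicate 27 gave -1.51. Without Fert+ replicates 15, 16, 18 and 19, a choice made after seeing the data, it was -1.55 (SE 0.24, 95% interval -2.12 to -0.97, edgeR unadjusted p = 0.00039, adjusted p = 0.887 over all IDs). Those left out include Fert+ replicates 16 and 15, with the highest Fert+ luteal levels (43.5 and 17.7 CPM). Fert+ replicates 21, 23 and 24 stayed in, at 1.18, 3.27 and 1.11 CPM. The estimate thus depends on which libraries were dropped. The 95% interval of this fit lies below 0, from the 8 libraries left. Of these, Fert- replicate 17 was the only library of batch 2, so with batch in the fit it did not inform the line difference. In the rest, line and parity changed together within each batch. Fert+ was of parity 2 and Fert- of parity 4 in batch 1, and Fert+ of parity 4 and Fert- of parity 3 in batch 3. Line and parity cannot be told apart in this fit.

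The 25 endometrium-restricted IDs are given beside ENSBTAG00000047700 as values only, because they were picked on these libraries for a low mean in corpus luteum, which leaves out any ID raised strongly in 1 luteal library. Fert- replicate 17 was highest in both, at 114 CPM for ENSBTAG00000047700 and 72.8 CPM for the 25 IDs together. Fert- replicate 25 had nearly as much of the restricted IDs, 69.8 CPM, with 6.91 CPM of ENSBTAG00000047700. Fert+ replicate 16 had 43.5 CPM of ENSBTAG00000047700 beside 22.2 CPM of the restricted IDs. Between 0 and 9 of the 25 IDs had no count in a luteal library. The part of endometrial RNA in the luteal values was not tested.

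The labels do not tie the libraries of the 2 tissues to each other by cow. For 9 of the 12 luteal libraries, the endometrium library with a number lower by 14 matched in line, in batch and in parity. For the other 3 it did not: luteal replicate 23 and endometrium replicate 9 differed in line and parity, 24 and 10 in parity, and 27 and 13 in line, batch and parity. These 3 matched other endometrium libraries in line, batch and parity: luteal replicate 23 matched replicate 12, 24 matched 7 and 13, and 27 matched 9 and 11. The 9 that matched at a number lower by 14 are set side by side without being taken as pairs. Endometrium replicates 4 and 1, at 4358 and 4341 CPM, stood beside luteal replicates 18 and 15, at 1.85 and 17.7 CPM. Replicate 7, at 610 CPM, and replicate 3, at 617 CPM, stood beside luteal replicates 21 and 17, at 1.18 and 114 CPM. Endometrium replicate 2, at 1154 CPM, was set beside luteal replicate 16, at 43.5 CPM, and replicate 5, at 329 CPM, beside luteal replicate 19, at 3.70 CPM. For endometrium replicates 14, 11 and 6, the luteal libraries 28, 25 and 20 were at 3.35, 6.91 and 2.81 CPM. The luteal level was thus between 0.0424% and 41.2% of the endometrial one, and the endometrial level was higher in 9 of 9.

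**Figure D4:**
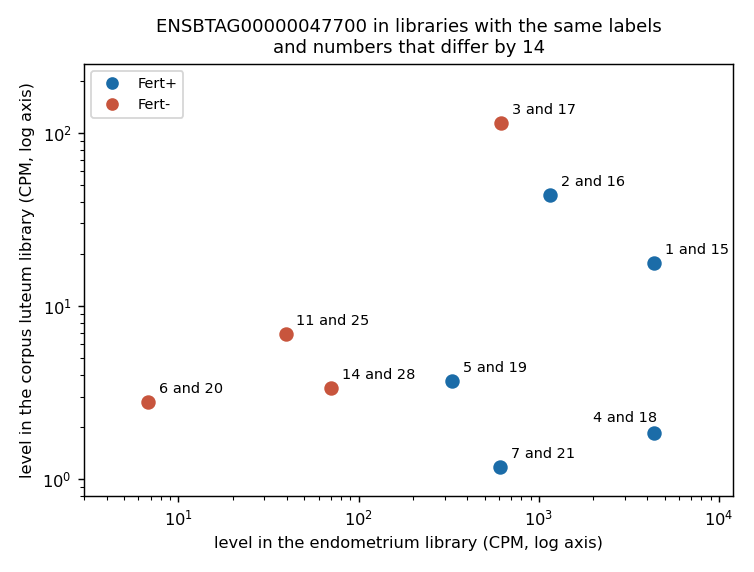
Level of ENSBTAG00000047700 in 9 endometrium libraries (horizontal, CPM, log axis) and in the corpus luteum library with the same line, batch and parity and a number higher by 14 (vertical, CPM, log axis), with both numbers beside each point. Endometrium libraries 3 and 7 lie at 617 and 610 CPM while their luteal counterparts lie at 114 and 1.18 CPM.

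Other IDs were ranked by how closely their log2 CPM followed that of ENSBTAG00000047700 over the 14 endometrium libraries. Of 13973 other IDs with a mean of at least 1 CPM, 19 had a Pearson r of 0.8 or more and 7 of -0.8 or less, while the median r was -0.0097 and the 1st and 99th percentiles were -0.67 and 0.68. The named IDs were picked as the extremes of this ranking, so their r is a description with no p. The number at an absolute r of at least 0.8 was 26, or 71 without Fert- replicate 9 and 43 without Fert- replicate 11.

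ENSBTAG00000018531 followed it most closely, with r = 0.943 and Spearman's rho = 0.943 (n = 14), ahead of the next ID at 0.897. This was another abundant ID of wide range, from 27.3 CPM in Fert- replicate 6 to 6246 CPM in Fert+ replicate 1, with a median of 682 CPM. Fert- replicate 6 was the lowest library for both IDs, and Fert+ replicates 1 and 4 the 2 highest for both, although in opposite order. The match was not exact: Fert- replicate 11, the second lowest for ENSBTAG00000047700, was at 269 CPM for ENSBTAG00000018531, above Fert+ replicate 10 at 125 CPM. The r was 0.938 within the 8 Fert+ libraries, 0.909 within the 6 Fert- libraries and 0.852 after line and batch were removed from both IDs. Leaving out each library in turn gave 0.911 (without Fert- replicate 6) to 0.953. Its own mean was also higher in Fert+, with 1951 ± 1923 CPM (SD, n = 8) against 379 ± 263 CPM (SD, n = 6) for Fert-, which is not separate support because the ID was picked for this pattern. Whether the 2 IDs share reads was not tested.

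The other 3 IDs named by their rank ran over 2.37-fold to 3.31-fold. ENSBTAG00000030193 had r = 0.897 (rho = 0.912) and ran from 0.851 CPM in Fert- replicate 6 to 2.70 CPM in Fert+ replicate 4. Its mean of 1.86 CPM was near the minimum of 1 CPM, and the part of counting error in its range was not tested. Its r was 0.661 after line and batch were removed. In the opposite direction, ENSBTAG00000017790 had r = -0.855 (rho = -0.864) and ran from 6.29 CPM in Fert+ replicate 1 to 14.9 CPM in Fert- replicate 11. ENSBTAG00000005063 had r = -0.853 (rho = -0.868), ran from 3.51 CPM in Fert+ replicate 4 to 11.6 CPM in Fert- replicate 11, and kept r = -0.862 after line and batch were removed. Besides ENSBTAG00000018531, the 25 IDs at an absolute r of 0.8 or more had means from 1.23 to 118 CPM. In the 23 of them with a count in every library, the ratio between the highest and lowest library had a median of 2.02 and reached 41.6, against 229 for ENSBTAG00000018531 and 640 for ENSBTAG00000047700.

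The other 2 had libraries at 0 and are named after their values were seen. ENSBTAG00000046813 (r = 0.804) was at 80.7 CPM in Fert+ replicate 1, 13.8 CPM in the next library and 0 in Fert- replicate 6, so its highest level was at least 316-fold higher than the lowest, taking 3 counts in the library at 0 as the floor. ENSBTAG00000046584 (r = 0.804) was at 9.03 CPM in Fert+ replicate 1, 1.51 CPM in the next library and 0 in Fert- replicates 6 and 14 and Fert+ replicate 10, at least 35.4-fold apart on the same floor. For both, Fert+ replicate 1 was the highest library and Fert- replicate 6 was at 0, which was also the lowest library for ENSBTAG00000047700.

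**Figure D5:**
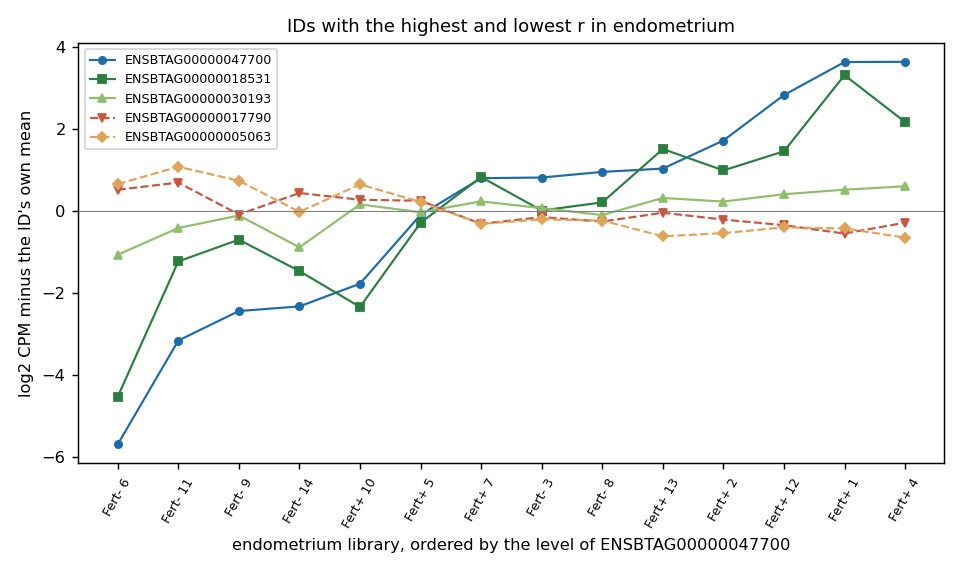
Log2 CPM minus the ID's own mean in the 14 endometrium libraries, ordered from the lowest to the highest level of ENSBTAG00000047700, for that ID and the 2 IDs with the highest (solid) and the 2 with the lowest (dashed) Pearson r. ENSBTAG00000018531 runs over 229-fold, while the other 3 run over 2.37-fold to 3.31-fold.

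The relation to ENSBTAG00000018531 could be tested in corpus luteum, which had no part in picking it. There ENSBTAG00000018531 ranged from 4.18 to 147 CPM, with Fert- replicate 17 highest at 147 CPM and Fert+ replicate 16 next at 73.0 CPM, the same 2 libraries as for ENSBTAG00000047700. Pearson's r was 0.796 (n = 12, permutation p = 0.00456, adjusted p = 0.0274 over 6 relations) and Spearman's rho was 0.692 (permutation p = 0.0161, adjusted p = 0.0964), both two-sided. Without replicates 17 and 16, the 2 farthest from the median of ENSBTAG00000018531, r fell to 0.413, so the relation rested on those libraries. With 1 library left out, r was lowest without Fert- replicate 17 (0.636) and highest without Fert+ replicate 21 (0.925), and removing line and batch gave 0.758. Fert+ replicate 21 had 30.3 CPM of ENSBTAG00000018531 beside 1.18 CPM of ENSBTAG00000047700. No batch held 6 libraries, so r was not computed within batches.

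ENSBTAG00000017790, negative in endometrium, had r = 0.555 in corpus luteum (n = 12, permutation p = 0.0866, adjusted p = 0.260; rho = 0.238, permutation p = 0.460, adjusted p = 0.552), and r = -0.065 without the 2 farthest libraries. The remaining 2 endometrial IDs had a mean under 1 CPM in corpus luteum.

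The same ranking was made over the 12 corpus luteum libraries. Of 13223 IDs, 50 had r of 0.8 or more and 71 of -0.8 or less, with 1st and 99th percentiles of -0.77 and 0.73. That total of 121 fell to 26 without Fert- replicate 17 and rose to 331 without Fert+ replicate 16, 249 without Fert+ replicate 15, 234 without Fert+ replicate 19 and 221 without Fert- replicate 28. ENSBTAG00000005675 (r = 0.918, rho = 0.918) was at 37.2 CPM in Fert- replicate 17, 2.55 CPM in Fert+ replicate 16 and at most 0.618 CPM in the other luteal libraries. ENSBTAG00000010382 (r = 0.905, rho = 0.781) was at 31.8 and 5.89 CPM in the same 2 libraries. Both were abundant in all 14 endometrium libraries, ENSBTAG00000005675 at 41.9 to 158 CPM (mean 90.5 ± 32.3, SD, n = 14) and ENSBTAG00000010382 at 23.5 to 152 CPM (mean 60.7 ± 35.9, SD, n = 14), and had medians of 0.292 and 0.242 CPM over the luteal libraries. These 2 IDs, picked for following ENSBTAG00000047700 here, thus had their highest luteal levels in the same replicates, 17 and 16. The 25 endometrium-restricted IDs together were highest in replicate 17 (72.8 CPM) but stood at 22.2 CPM in replicate 16, where luteal libraries ran from 10.7 to 72.8 CPM. The part of endometrial RNA in the luteal level of ENSBTAG00000047700 was not tested. Downward, ENSBTAG00000018590 (r = -0.907) and ENSBTAG00000015026 (r = -0.890) were lowest in Fert- replicate 17, at 6.28 and 2.32 CPM, against medians of 13.0 and 6.72 CPM. In endometrium these 4 IDs had r of -0.053, 0.371, 0.228 and -0.138 (n = 14), with permutation p of 0.193 or more and adjusted p of 0.386 or more. The IDs at an absolute r of 0.8 or more in both tissues numbered 1, which was 3.85% of the 26 in endometrium and 0.826% of the 121 in corpus luteum. Among all IDs ranked, 26 of 13973 in endometrium and 121 of 13223 in corpus luteum reached that absolute r. An ID below the minimum mean level in the other tissue could not be shared. The shared ID was ENSBTAG00000015625, named after its values were seen, with r = 0.804 in endometrium and -0.835 in corpus luteum.

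Depth did not pass a test of relation with the level. In endometrium the log2 CPM of ENSBTAG00000047700 had r = -0.374 with the total count (n = 14, permutation p = 0.188, adjusted p = 0.251 over 4 relations; rho = -0.442, permutation p = 0.117, adjusted p = 0.156) and r = -0.425 with the number of IDs with a count (permutation p = 0.122, adjusted p = 0.251; rho = -0.477, permutation p = 0.0886, adjusted p = 0.156). Without the 2 farthest libraries these were -0.315 and -0.416. In corpus luteum r was 0.211 with the total count (n = 12, permutation p = 0.505, adjusted p = 0.505; rho = 0.252, permutation p = 0.432, adjusted p = 0.432) and 0.471 with the number of IDs with a count (permutation p = 0.130, adjusted p = 0.251; rho = 0.601, permutation p = 0.0432, adjusted p = 0.156). They were 0.179 and 0.199 without the 2 farthest libraries.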

How the data were processed

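The deposited files hold whole-number read counts per gene ID, not normalized, 1 file per library. Per the submitters' processing notes, the tools were STAR 2.3.0, featureCounts, Trim Galore, FastQC 0.10.0 and CASAVA 1.9, with the build UMD3.1. Annotation release, strandedness and treatment of multi-mapped reads were not given in the sources used here. Values of overlapping or near-identical genes are therefore uncertain. All 74 replicate pairs differed beyond sampling noise (lowest chi-square over its degrees of freedom 16.5).

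Levels are CPM from library totals. Each tissue was fitted alone in edgeR 4.0.16 (R 4.3.3): filterByExpr by line, trimmed mean of M values (TMM) scaling, a robust quasi-likelihood F test with batch and line, or line and parity, and Benjamini-Hochberg adjustment over all IDs (threshold 0.05). SEs were derived from the estimate and its F. Alternatives used DESeq2 1.42.0 and limma 3.58.1. Likeness is Pearson's r of TMM-scaled log2 CPM (prior count 2). In each tissue the 2 highest and 2 lowest IDs by r were named. Correlations were tested with 100000 permutations. The luteal principal component used log2(CPM + 1). The scripts were tested on simulated data. ENSBTAG00000047700 and the rules were chosen with earlier results of these data known.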

Additional observations from a re-analysis of the deposited data

Results flagged for a closer look

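Libraries were marked where their gap to the nearest library of the same group was large against the range of the group on the CPM scale. This was met in 7 of 20 groups of values, where the rate set by the critical values, about 1 of 20, is for independent, normally distributed values. These CPM values are skewed and the IDs were picked for following one another, so the 7 cannot be read against that rate. On the log2 scale 1 of the 7 also met it, ENSBTAG00000010382 in Fert+ corpus luteum. ENSBTAG00000047700 stood out in corpus luteum in Fert- replicate 17, at 114 CPM with the next Fert- library at 11.9 CPM, and in Fert+ replicate 16, at 43.5 CPM with the next Fert+ library at 17.7 CPM. ENSBTAG00000018531 stood out in Fert+ endometrium replicate 1, at 6246 CPM, where replicate 4 followed at 2831 CPM. ENSBTAG00000005675 was at 37.2 CPM in Fert- corpus luteum replicate 17 (next 0.618 CPM) and at 2.55 CPM in Fert+ corpus luteum replicate 16 (next 0.349 CPM). ENSBTAG00000010382 was at 31.8 CPM in Fert- corpus luteum replicate 17 (next 1.24 CPM) and at 5.89 CPM in Fert+ corpus luteum replicate 16 (next 0.315 CPM). Both of these IDs were picked for following ENSBTAG00000047700 in corpus luteum, so sharing its 2 high libraries follows from the choice.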

How the results depend on the processing

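The endometrial line difference of ENSBTAG00000047700 stayed above 0 in every alternative fit and in each leave-one-out fit, at most 3.93 on the log2 scale, and it was -0.91 within batch 2. Its luteal line difference ran from -2.48 to 0.10 when each library was left out, the last without Fert+ replicate 19, and was -4.94 within batch 2 and 0.40 within batch 3. The tissue difference ran from 4.96 to 6.29 with each library left out. The batch effect passed the threshold only in DESeq2 (adjusted p = 0.0436), and with each library left out its adjusted p ran from 0.247 to 0.445 in edgeR; parity ran from 0.581 to 0.974. With TMM scaling the endometrial level moved most in Fert+ replicate 1, from 4341 to 4887 CPM. That put it above Fert+ replicate 4, which went from 4358 to 4261 CPM. The lowest library, Fert- replicate 6, went from 6.81 to 7.01 CPM.

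The number of IDs called between the lines in endometrium was 0, or 8 in DESeq2, and 0 to 1 with each library left out (1 without Fert- replicate 8). In corpus luteum it was 0, or 195 in DESeq2, 4 with no low-count filter, 259 in 1 fit of all libraries, 1191 with no batch term and 4006 with batch and parity. It was 0 to 908 with each library left out (908 without Fert+ replicate 23). The number of IDs at an absolute r of 0.8 or more in endometrium was 26, or 45 with Spearman's rho, 119 after removing line and batch, 13 among IDs with a mean of at least 10 CPM, and 19 to 71 with each library left out. In corpus luteum it was 121, or 63 with Spearman's rho, and 26 to 331 with each library left out. No paired analysis was possible because the groups compared share no replicate numbers, and a number lower by 14, which would tie the tissues, disagreed with the labels for 3 of 12 luteal libraries. Depth limits the 7 lowest luteal libraries, whose values rest on 14 to 47 counts.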
